A study of Mus musculus with 16 samples.

Results

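Transcripts of 10 heat shock genes were measured in the mouse aorta after infusion of saline or of angiotensin II (Ang II), a peptide hormone that constricts arteries and raises blood pressure. The 10 genes were taken by symbol from the 54532 genes of the deposited table, and all 10 were found, each once. They are the inducible HSP70 genes Hspa1a and Hspa1b, the constitutive HSP70 gene Hspa8, the HSP110 gene Hsph1, the HSP40 gene Dnajb1, the HSP90 genes Hsp90aa1 and Hsp90ab1, and the small heat shock protein genes Hspb1, Hspb6 and Cryab. All 10 passed the filter on low values. RNA-seq libraries came from 16 aortas stripped of the outer layer, the adventitia. Both groups were male mice of strain C57BL/6j lacking apolipoprotein E (Apoe-/-), 8 to 12 weeks old at treatment, with an osmotic pump for 7 days. The 8 controls received saline (0.9% sodium chloride) and the other 8 received 1000 ng of Ang II per kg of body weight and minute. The series gives 8 mice per group; the library names start with WT, which the labels do not explain, and there is no group with intact Apoe.

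Heat shock proteins are molecular chaperones, which bind unfolded or newly made proteins, keep them from clumping and help them fold. HSP70 works in a cycle with a J-domain partner such as DNAJB1, which delivers the client protein and drives ATP hydrolysis, and with HSP110 (HSPH1), which exchanges the nucleotide and helps to dissolve aggregates. HSP90 acts late in folding, on kinases and steroid receptors. Small heat shock proteins hold unfolded proteins without using ATP, and in smooth muscle HSPB1, HSPB6 (HSP20) and CRYAB (alpha B-crystallin) also bind the actin and desmin cytoskeleton; phosphorylated HSPB6 is linked to relaxation of smooth muscle. Under protein-damaging stress the transcription factor HSF1 turns on Hspa1a, Hspa1b, Dnajb1, Hsph1, Hsp90aa1 and Hspb1 through heat shock elements, which are repeats of the unit nGAAn in alternating direction.

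Libraries held 14606864 to 19988730 reads, which were recovered from the FPKM, a level scaled for transcript length and library depth. The fewest reads behind any of the 10 genes were those of Dnajb1, at 399 to 2562 per library. The summed level of 8 smooth muscle markers ran from 9371 to 15694 FPKM in saline aortas and from 6734 to 11312 FPKM in Ang II aortas. Over 8 macrophage and leukocyte markers the sum had a median of 49.2 FPKM (10.2 to 458) in saline aortas and 147 FPKM (33.6 to 507) in Ang II aortas, and 3 of 7 tested markers were called higher. Over 8 adipocyte markers it had a median of 65.0 FPKM (26.1 to 212) in saline aortas, with 192 in Saline 2 and 212 in Saline 8, and of 21.7 FPKM (12.9 to 79.9) in Ang II aortas, and 2 of 7 tested markers were called lower. The sum over 12 striated muscle markers was 19.2 to 74.8 FPKM and 17.7 to 77.9 FPKM, with none called. Over all tested genes 9.54% were called higher and 24.9% lower with Ang II, so 2 of 7 adipocyte markers is close to the second share. The part of these cell types in the results on heat shock genes was not tested. No marker of these lists was at 0 in every library. The libraries Saline 7, Saline 8 and Saline 2 stood apart on the first principal component, which held 46.9% of the variance. Values without them are therefore given beside some genes and lists, and others shifted too. Without them 2 macrophage and leukocyte markers were called higher and 1 adipocyte marker lower. In bulk RNA, fewer cells of a type and less RNA per cell cannot be told apart.

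The promoters of 4 genes are shown. Hspa1a and Hspa1b were chosen because the copies are nearly identical, and Hspb1 because it holds 2 matches. Hsph1 was chosen for a run of 3 units, which lies after the start site and so outside the bases printed. RefSeq (GRCm38.p6) gave a promoter window, from 250 bases before to 50 bases after a start site, for 6 of the 10 genes; for Hsph1 the upstream of its 2 start sites is used. Printed are the 150 bases before the start site, 5′ to 3′ on the strand of the gene. Capitals mark a match to GAANNTTC or TTCNNGAA, which are pairs of facing units and read the same on both strands.
Hspa1a, chr17:34972157-34972306, minus strand: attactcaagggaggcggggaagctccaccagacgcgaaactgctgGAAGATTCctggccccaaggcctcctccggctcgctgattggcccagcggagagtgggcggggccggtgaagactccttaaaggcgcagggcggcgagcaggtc
Hspa1b, chr17:34959239-34959388, minus strand: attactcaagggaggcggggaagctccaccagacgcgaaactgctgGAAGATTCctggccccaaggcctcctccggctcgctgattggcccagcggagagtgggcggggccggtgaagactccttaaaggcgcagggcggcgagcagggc
Hsph1, chr5:149636337-149636486, minus strand: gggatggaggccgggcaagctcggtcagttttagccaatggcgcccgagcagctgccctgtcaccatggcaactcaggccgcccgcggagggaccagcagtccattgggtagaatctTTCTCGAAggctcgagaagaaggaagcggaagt
Hspb1, chr5:135887769-135887918, plus strand: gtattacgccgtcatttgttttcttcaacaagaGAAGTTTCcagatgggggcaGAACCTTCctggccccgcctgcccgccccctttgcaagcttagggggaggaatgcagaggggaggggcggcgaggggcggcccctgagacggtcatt

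The Hspa1a and Hspa1b promoters were identical at 149 of these 150 bases and at 247 of 250. Each held a GAANNTTC match that begins at position -104, counted from the start site as 0. Hspb1 held 2 such matches, at -117 and -97. Hsph1 held a TTCNNGAA match at -33 and, at position 36, the run TTCTGGAAAGTTC, which joins 3 units. A run of 3 units, in which a GAANNTTC and a TTCNNGAA match share 1 unit, was present in 0.603% of all 32851 promoter windows of 300 bases. GAANNTTC was present in 7.86%, TTCNNGAA in 8.52% and either of them in 15.1%. Both windows of Dnajb1 lacked the 8-letter matches, and Hspb6 had one, at -120, in 1 of its 2 windows. A match is a description of the letters, not a measured binding site.

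Ang II aortas had less Hspb6 than saline aortas. They also had more Hsph1, but that call was close to the threshold and was lost in 11 of 16 fits that left out 1 library. The heat-inducible genes Hspa1a, Hspa1b and Dnajb1 varied from library to library in both groups. With limma on log2(FPKM + 1), adjusted over 15007 tested genes, 1 of the 10 genes rose and 1 fell. Over all tested genes 9.54% were called higher and 24.9% lower, so 1 of 10 is close to the first share and below the second. The median log2 fold change was 0.17 over the 10 genes and -0.12 over all tested genes. When libraries were scaled by their median ratio, these medians were 0.31 and -0.006, with the same counts of 1 and 1 among the 10 genes.

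**Figure D1:**
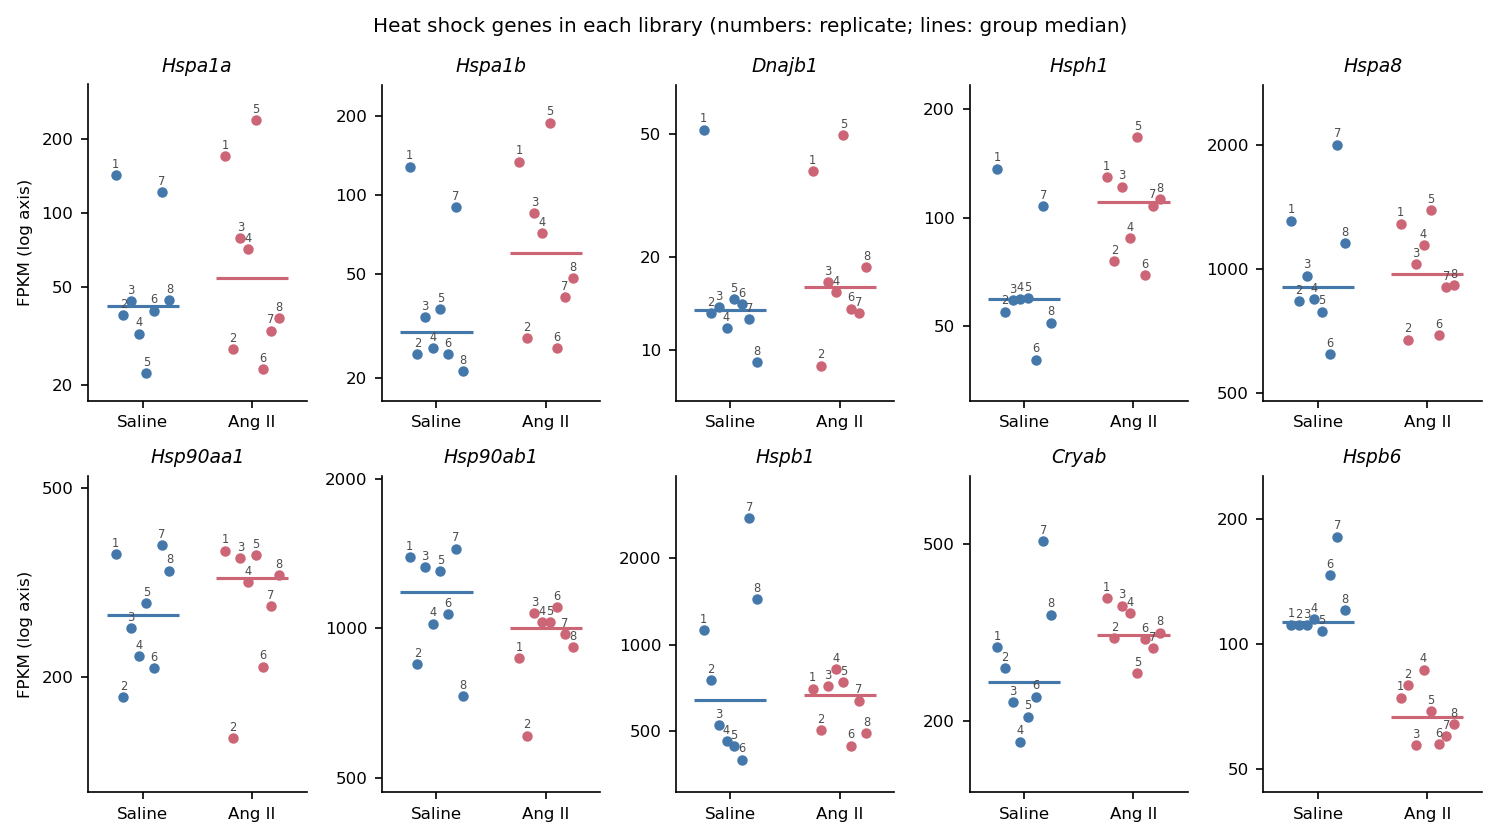
FPKM of the 10 genes (log axis) in each of the 16 libraries, numbered by replicate, with the group median as a line. Every Ang II library lies below every saline library for Hspb6 only, and replicates 1 and 7 of saline and 1 and 5 of Ang II are the high points of Hspa1a and Hspa1b.

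**Figure D2:**
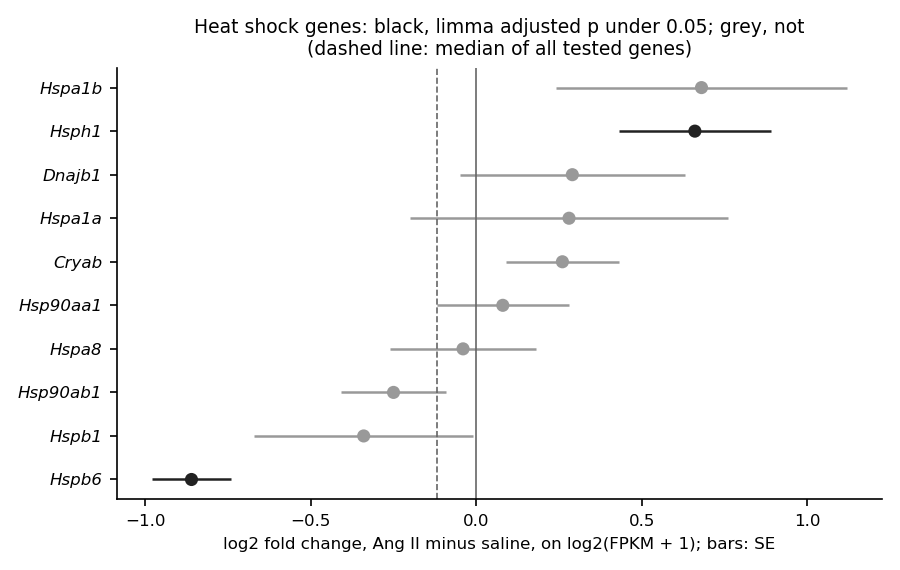
Log2 fold change, Ang II minus saline, with its standard error for each gene, on the log2(FPKM + 1) scale. Hspb6 (-0.86) and Hsph1 (0.66) are the genes past the threshold, and the dashed line is the median of all tested genes at -0.12; Hspa8, near 0, changes sign with the scaling of libraries.

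Hspb6 (ENSMUSG00000036854, GRCm38 chromosome 7, 30552178 to 30555443, plus strand) encodes HSP20, the small heat shock protein tied to smooth muscle relaxation. It held 107.5 to 182 FPKM (median 113) with saline and 57.0 to 86.7 FPKM (median 66.5) with Ang II. The groups did not overlap: each of the 8 Ang II values was below each of the 8 saline values, as was true of 5.62% of tested genes. Its mean fell from 125.6 ± 25.9 to 68.5 ± 10.9 FPKM (SD, n = 8 per group), a log2 fold change of -0.86 (SE 0.12, limma adjusted p = 7.38e-05), or 1.81-fold lower. Over all 12870 assignments of libraries to groups, the exact permutation p (two-sided) was 0.000155, the lowest possible. The 26 alternative settings gave -0.91 to -0.64, and each passed the threshold. Its exons overlap other gene models over 8.79% of their bases.

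Of 8 smooth muscle markers 4 (Myh11, Smtn, Lmod1 and Des) fell and none rose, where 24.9% of all tested genes were called lower, and their part in the fall of Hspb6 was not tested. The counts were the same after median ratio scaling, and 6 fell without Saline 2, Saline 7 and Saline 8. Myh11, which encodes the myosin of smooth muscle, fell by 0.88 on the log2 scale (limma adjusted p = 0.000181), and Acta2, smooth muscle actin, was at -0.32 and missed the threshold (limma adjusted p = 0.113). The ratio of Hspb6 to Myh11 within a library was 0.0535 to 0.140 (median 0.0785) with saline and 0.0555 to 0.1135 (median 0.0801) with Ang II. That is a log2 difference of 0.01 with SDs of 0.41 and 0.32 (exact permutation p = 0.950). The ratio of Hspb6 to Acta2 was 0.0146 to 0.0230 (median 0.0189) with saline and 0.00947 to 0.0150 (median 0.0128) with Ang II, and 6 of 8 Ang II ratios were under the whole saline range (log2 difference -0.55, exact permutation p = 0.000932, 0.00373 adjusted over 4 ratios). So a difference of Hspb6 relative to Acta2 was detected and none relative to Myh11; these 4 ratios to Acta2 and Myh11 were chosen after seeing the data.

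Cryab (ENSMUSG00000032060, GRCm38 chromosome 9, 50751325 to 50756636, plus strand) encodes alpha B-crystallin, a partner of desmin and of HSPB1. It held 180 to 508 FPKM (median 246) with saline and 257 to 379 FPKM (median 312) with Ang II. The groups overlapped, although all 8 Ang II libraries were above the saline median, and the highest value of all was that of Saline 7. The log2 fold change of 0.26 (SE 0.17) missed the threshold (limma adjusted p = 0.254). Without Saline 7 it was 0.39 and passed (limma adjusted p = 0.0341), and without Saline 2, Saline 7 and Saline 8 it was 0.52 (limma adjusted p = 0.00385). Of its exon bases 17.04% overlap Hspb2, a small heat shock protein gene on the other strand, so their reads may not be separable. Hspb2 itself held 67.3 ± 26.5 FPKM in saline aortas against 60.3 ± 13.3 FPKM in Ang II aortas (log2 fold change -0.10, limma adjusted p = 0.715), and without Saline 2, Saline 7 and Saline 8 its log2 fold change was 0.17 (limma adjusted p = 0.425).

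The level of Cryab relative to Hspb6 in the same library was higher in all 8 Ang II libraries. Most of this difference lies in the lower Hspb6 (log2 fold change -0.86), as Cryab alone was at 0.26 and missed the threshold. The ratio of Cryab to Hspb6 was 1.55 to 2.88 (median 2.19) with saline and 3.73 to 6.38 (median 4.91) with Ang II, so the groups did not overlap. The log2 difference was 1.13 (exact permutation p = 0.000155, the smallest possible; 0.000932 adjusted over 6 ratios). A ratio of this kind does not depend on how libraries are scaled to each other. Relative to Acta2, itself at -0.32, Cryab was also higher (log2 difference 0.58, exact permutation p = 0.0138, 0.0184 adjusted over 4 ratios). Relative to Myh11, itself at -0.88, the log2 difference was 1.14 (exact permutation p = 0.00218, 0.00435 adjusted over 4 ratios). These ratios to Acta2 and Myh11 were chosen after seeing the data.

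Hspb1 (ENSMUSG00000004951, GRCm38 chromosome 5, 135887919 to 135889563, plus strand) encodes HSP25, the mouse form of HSP27, which caps actin filaments. It ranged from 399 to 2753 FPKM (median 640) with saline, a spread of 6.91-fold, and from 446 to 823 FPKM (median 671) with Ang II, a spread of 1.84-fold. Saline 7 (2753), Saline 8 (1437) and Saline 1 (1123) lay above every Ang II library, and the other 5 saline libraries were within or below the Ang II range. The log2 fold change of -0.34 (SE 0.33) did not pass (limma adjusted p = 0.447), and it was 0.18 without Saline 2, Saline 7 and Saline 8 (limma adjusted p = 0.560). Its ratio to Hspb6 overlapped between groups, at 2.72 to 15.15 with saline and 6.34 to 12.6 with Ang II (log2 difference 0.53, exact permutation p = 0.130, 0.190 adjusted over 6 ratios). Without Saline 7 that log2 difference was 0.71 (exact permutation p = 0.0359).

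**Figure D3:**
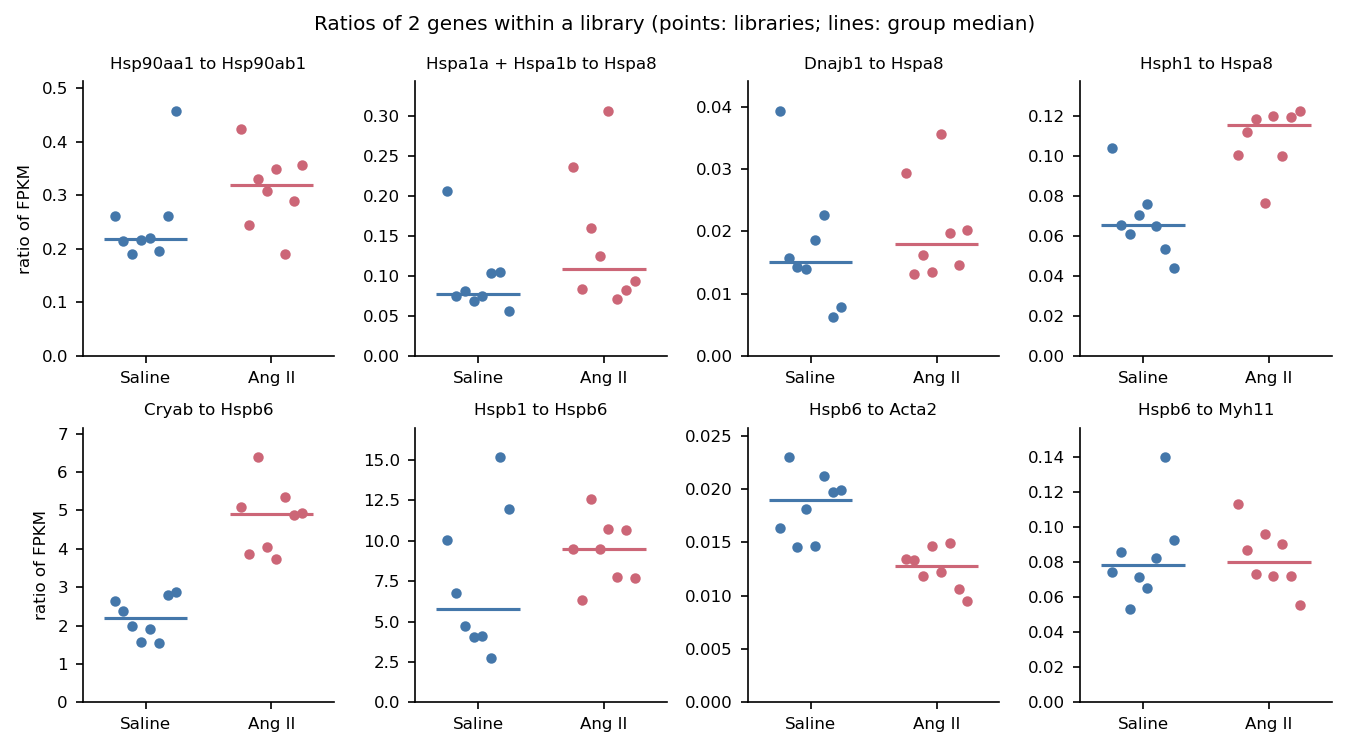
Ratio of the FPKM of 2 genes within each library, by group, with the group median as a line and a linear axis from 0. Cryab to Hspb6 does not overlap between groups (1.55 to 2.88 against 3.73 to 6.38), Hsph1 to Hspa8 is higher with Ang II, and Hspb6 to Myh11 overlaps throughout.

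Hspa1a (ENSMUSG00000091971, GRCm38 chromosome 17, 34969190 to 34972156) and Hspa1b (ENSMUSG00000090877, 34956436 to 34959238), both on the minus strand, encode the stress-inducible HSP70. Of the 50-base stretches of Hspa1a transcripts 58.8% also occur in Hspa1b, so reads could be split between them or dropped, and the level of each is uncertain. Hspa1a held 22.5 to 142 FPKM (median 42.1) with saline and 23.3 to 238 FPKM (median 54.5) with Ang II. Hspa1b held 21.2 to 128.5 FPKM (median 30.05) with saline and 25.9 to 189 FPKM (median 59.97) with Ang II. In both genes Saline 1, Saline 7, Ang II 1 and Ang II 5 were the 4 highest libraries, and the groups overlapped.

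Summed over both copies, the level was 270.8 FPKM in Saline 1, 211.5 in Saline 7, 305 in Ang II 1 and 427 in Ang II 5, while the remaining saline libraries held 58.5 to 78.1 and the remaining Ang II libraries 49.2 to 164. The log2 difference of the sum was 0.46 and did not pass (exact permutation p = 0.378); it was 0.20 without Ang II 5 and 0.69 without Saline 1. The log2 fold changes of Hspa1a and Hspa1b were 0.28 (SE 0.48) and 0.68 (SE 0.44), with limma adjusted p = 0.671 and 0.242. That of Hspa1a was 0.007 without Ang II 5 and 0.50 without Saline 1, and that of Hspa1b ran from 0.45 to 0.92 when 1 library was left out. Their spread within a group was among the widest of all tested genes. The SD of log2(FPKM + 1) over Ang II libraries was 1.22 for Hspa1a and 1.01 for Hspa1b, above that of 99.6% and 99.0% of tested genes; over saline libraries it was 0.91 and 0.94, above 94.9% and 95.5%.

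Dnajb1 (ENSMUSG00000005483, chromosome 8), the J-domain partner of inducible HSP70, showed the same 2 Ang II libraries but only 1 of the saline ones. It held 51.6 FPKM in Saline 1 and 9.16 to 14.6 FPKM in the other saline libraries, with 12.6 FPKM in Saline 7. Among Ang II libraries it held 37.9 FPKM in Ang II 1 and 49.6 FPKM in Ang II 5, against 8.90 to 18.5 FPKM in the rest. The log2 fold change was 0.29 (SE 0.34, limma adjusted p = 0.529), with 0.094 without Ang II 5 and 0.53 without Saline 1. Without Saline 2, Saline 7 and Saline 8 it was 0.07 (limma adjusted p = 0.909).

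Hsph1 (ENSMUSG00000029657, GRCm38 chromosome 5, 149614287 to 149636376, minus strand) encodes HSP110, the exchange factor of HSP70. It held 40.4 to 137 FPKM (median 59.4) with saline and 69.2 to 167 FPKM (median 110.1) with Ang II. All 8 Ang II libraries were above the saline median, and only Saline 1 and Saline 7 reached into the Ang II range. Its mean rose from 71.2 ± 33.0 to 108.8 ± 31.8 FPKM, or by 0.66 on the log2 scale (SE 0.23, limma adjusted p = 0.0345; exact permutation p = 0.0225). The call was close to the threshold: leaving out 1 library at a time kept it in 5 of 16 fits (without Saline 1, Saline 7, Ang II 2, Ang II 4 or Ang II 6). It was lost without Saline 2, 3, 4, 5, 6 or 8 or without Ang II 1, 3, 5, 7 or 8, with limma adjusted p from 0.0502 to 0.0704 and a log2 fold change of 0.56 or more. Without Saline 2, Saline 7 and Saline 8 together it was also lost (log2 fold change 0.68, limma adjusted p = 0.0508).

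Hspa8 (ENSMUSG00000015656, chromosome 9), which encodes the constitutive HSC70, did not follow Hsph1. It held 623 to 2008 FPKM (median 905) with saline and 674 to 1392 FPKM (median 972.5) with Ang II. The log2 fold change was -0.04 (SE 0.22, limma adjusted p = 0.899), and 0.10 after median ratio scaling and 0.15 without Saline 2, Saline 7 and Saline 8. Within a library the ratio of Hsph1 to Hspa8 was 0.0442 to 0.104 (median 0.0652) with saline and 0.0766 to 0.1225 (median 0.115) with Ang II. It was higher with Ang II (log2 difference 0.71, exact permutation p = 0.000932, 0.00280 adjusted over 6 ratios), and 5 of 8 Ang II ratios were over the whole saline range. The ratio of summed Hspa1a and Hspa1b to Hspa8 differed by 0.50 on the log2 scale (exact permutation p = 0.158) and that of Dnajb1 to Hspa8 by 0.35 (exact permutation p = 0.340), and neither passed. Without Saline 1 the former was 0.68 (exact permutation p = 0.0499, before adjustment).

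Hsp90aa1 (ENSMUSG00000021270, chromosome 12) and Hsp90ab1 (ENSMUSG00000023944, chromosome 17) encode the inducible and the constitutive cytosolic HSP90. Hsp90aa1 held 182 to 379 FPKM (median 270.0) with saline and 148.5 to 369 FPKM (median 322.5) with Ang II, and the groups overlapped (log2 fold change 0.08, SE 0.20, limma adjusted p = 0.787). Hsp90ab1 held 731.5 to 1446 FPKM (median 1185) with saline and 609 to 1102 FPKM (median 1002) with Ang II. All 8 Ang II libraries were below the saline median, but the groups overlapped and the log2 fold change of -0.25 (SE 0.16) did not pass (limma adjusted p = 0.241). Without Saline 2, Saline 7 and Saline 8 it was -0.37 (limma adjusted p = 0.0554). The ratio of Hsp90aa1 to Hsp90ab1 was 0.191 to 0.458 (median 0.218) with saline and 0.191 to 0.4235 (median 0.320) with Ang II. Its log2 difference of 0.33 did not pass (exact permutation p = 0.112), but was 0.46 without Saline 8, which held the highest ratio (exact permutation p = 0.0124), and 0.42 without Ang II 6 (exact permutation p = 0.0368), both before adjustment.

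FPKM is scaled here for the mean length of a gene's annotated transcripts, from 831 bases (Cryab) to 2967 bases (Hspa1a). An order between genes depends on these lengths. Of the 50-base stretches of Hspb1, Hsp90aa1 and Hspa8, 50.1%, 47.5% and 39.4% also occur in other genes, which may affect their level. By median FPKM the order with saline was Hsp90ab1, Hspa8, Hspb1, Hsp90aa1, Cryab, Hspb6, Hsph1, Hspa1a, Hspa1b and Dnajb1. Only Hspb1 and Hsp90aa1 were neighbours whose ranges did not overlap. With Ang II, Hsph1 stood above Hspb6, in 7 of 8 libraries, whereas with saline Hspb6 stood above Hsph1 in 7 of 8. With Ang II the ranges of Cryab and Hsph1 did not overlap either. The 10 genes together made up 0.366% to 1.02% of the summed FPKM of a saline library and 0.356% to 0.705% of an Ang II library.

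Over all 8 libraries of a group, most pairs of the 10 genes correlated positively in both groups. No pair with Hspb6 passed the test in either group. All 45 pairs were correlated in each group of 8, on log2(FPKM + 1), and adjusted over the 90 relations. With saline 44 pairs had r above 0, with a median r of 0.625, and 3 passed by Pearson's r and 3 by Spearman's rho. With Ang II 39 pairs had r above 0, with a median r of 0.384, and 7 passed by Pearson's r and 11 by Spearman's rho. Whether the groups differ in these correlations was not tested. Among Hspa1a, Hspa1b, Hspa8, Hsph1 and Dnajb1, r was 0.19 to 0.96 with saline and 0.833 to 0.99 with Ang II. In saline much of this block rested on Saline 1 and Saline 7, though Hspa1b with Dnajb1 hardly moved from r = 0.756. Without these 2 libraries r ran from -0.736 (Hspa8 and Dnajb1) to 0.719 (Hspa1b and Dnajb1), and was -0.585 for Hspa1a and Hspa1b. With Ang II, r without the 2 farthest libraries ran from 0.53 to 0.979. Hspa1a and Hspa1b had r = 0.99 and rho = 1.00 with Ang II (exact permutation adjusted p = 0.00223 and 0.00446; r = 0.979 without the 2 farthest libraries). Hspa1b and Hspa8 had r = 0.967 and rho = 0.952 (exact permutation adjusted p = 0.0149 and 0.0201; r = 0.939 without the 2). The first of these values is touched by the sequence that Hspa1a and Hspa1b share.

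One pair passed by Pearson's r in both groups, Hspa1b with Hsph1. It had r = 0.881 and rho = 0.929 with Ang II (exact permutation adjusted p = 0.0420 and 0.0201) and r = 0.960 and rho = 0.952 with saline (exact permutation adjusted p = 0.0190 and 0.0201). Without Saline 1 and Saline 7 the latter r was 0.546, so in saline it rests on those libraries; without Ang II 1 and Ang II 5 the former was 0.724. Among small heat shock proteins with saline, Hspb1 and Cryab had r = 0.964 and rho = 0.833 (exact permutation adjusted p = 0.0149 and 0.0728; r = 0.845 without the 2 farthest libraries). With Ang II the same pair had r = 0.244 and rho = 0.19 and did not pass (exact permutation adjusted p = 0.721 and 0.854).

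**Figure D4:**
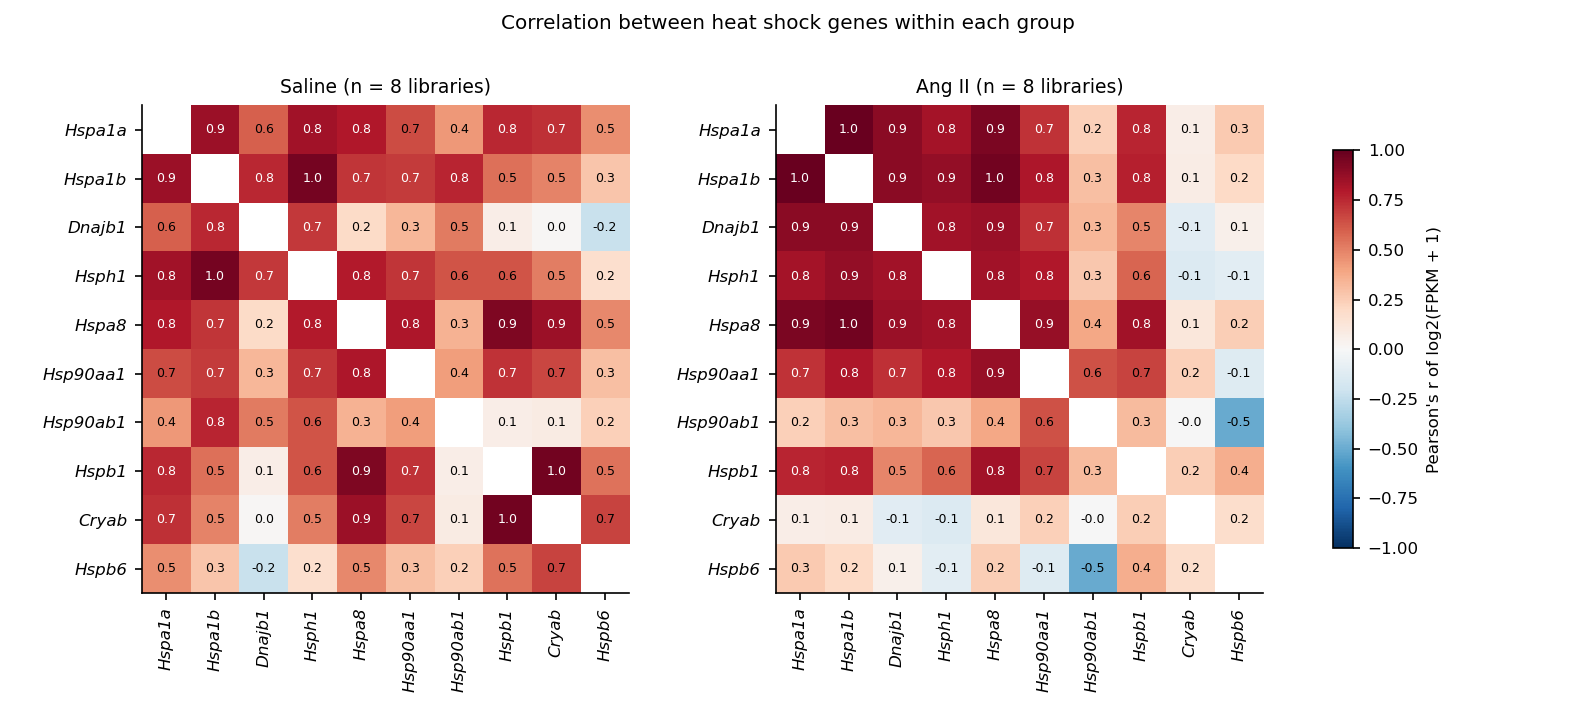
Pearson's r of log2(FPKM + 1) between the 10 genes over the 8 saline libraries (left) and the 8 Ang II libraries (right), with red for positive and blue for negative values. Over all 8 libraries, the block of Hspa1a, Hspa1b, Dnajb1, Hsph1 and Hspa8 is positive in both groups (0.19 to 0.96 with saline, 0.833 to 0.99 with Ang II). Without Saline 1 and Saline 7 its saline values run from -0.736 to 0.719. The Hspb6 row runs from -0.225 to 0.676 with saline and from -0.503 to 0.364 with Ang II.

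Genes with the most similar pattern were sought over 16 libraries after taking off each group's mean, among 11865 genes. Nearest to Hspa1b outside the 10 genes were Dnaja1 (a J-domain partner of HSC70, r = 0.87), Pxdc1 (0.87), Rnd1 (0.86), Med21 (0.85) and Hspd1 (mitochondrial HSP60, 0.83). Hspa1a (0.93) and Hsph1 (0.91) ranked above all of these, while Hspb6 had r = 0.24. Nearest to Hsp90aa1 were Cct3 (a subunit of the cytosolic chaperonin, 0.88), Tars (0.86), Wdr12 (0.85), Eif4a1 (0.84) and Elp5 (0.82). Nearest to Cryab were Zdhhc18, Rnaseh2c and Trmt112 (0.94 each), Cuta (0.93) and Polr1d (0.92), and Hspb1 ranked 31 with 0.88. Without Saline 2, Saline 7 and Saline 8 the values for these 5 neighbours of Cryab were 0.77 to 0.86, and that for Hspb1 was 0.59. Such values share library depth and composition and are given as a description.

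Immediate early genes respond within minutes to stimulation or tissue handling. Of 4 that were correlated with Hspa1b, Atf3 passed by both measures in the Ang II group and Jun by Pearson's r alone. Atf3, a stress-responsive transcription factor, held 299 FPKM in Ang II 5 and 82.9 FPKM in Ang II 1, against 7.15 to 36.5 FPKM in the other Ang II libraries. Its correlation with Hspa1b was r = 0.955 and rho = 0.952 with Ang II (exact permutation adjusted p = 0.00198 and 0.00913 over 8 relations; r = 0.888 without the 2 farthest libraries) and r = 0.536 and rho = 0.262 with saline (exact permutation adjusted p = 0.357 and 0.619). Jun had r = 0.843 and rho = 0.833 with Ang II (exact permutation adjusted p = 0.0129 and 0.0615). Fos and Egr1 did not pass in either group (exact permutation adjusted p of 0.0675 or more). In saline, Saline 2 held 442 FPKM of Fos and 112 FPKM of Atf3 with 24.6 FPKM of Hspa1b, while Saline 7 held 121, 107 and 90 FPKM of the same genes. Of 15 immediate early genes 3 fell and none rose with Ang II, against 24.9% called lower among all tested genes, and none was called after median ratio scaling or without Saline 2, Saline 7 and Saline 8. The part of these genes in the spread of Hspa1a and Hspa1b was not tested.

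Other chaperones were read from 10 lists of 97 genes, 93 of them tested, of which 10 rose and 30 fell. Over all tested genes 9.54% were called higher and 24.9% lower, and these shares are the background for each list that follows. After median ratio scaling 18 of the 93 genes were higher and 20 lower, against 2235 and 2113 of all tested genes. The median log2 fold change of the 93 genes was -0.12, the same as over all tested genes, and 0.02 after median ratio scaling.

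Of 12 chaperones of the endoplasmic reticulum 8 rose with Ang II and none fell (median log2 fold change 0.44, background 9.54% higher), and the counts were the same after median ratio scaling; without Saline 2, Saline 7 and Saline 8, 6 rose and 1 fell. Hspa5, the HSP70 of that compartment (BiP), rose from 205 ± 54.3 to 416 ± 145 FPKM (log2 fold change 0.99, limma adjusted p = 0.00254). Hsp90b1, its HSP90 (GRP94), rose from 141 ± 31.2 to 243 ± 56.6 FPKM (log2 fold change 0.78, limma adjusted p = 0.00196), with 15.7% of its exon bases shared with other gene models. Sdf2l1, a partner of BiP, had a log2 fold change of 0.98.

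Of 13 cytosolic partners of HSP90 8 fell, 5 were not called and none rose (median -0.39, background 24.9% lower). With median ratio scaling 5 were lower and 1 higher, and without Saline 2, Saline 7 and Saline 8 7 were lower. Unc45a, a chaperone of myosin, fell from 139 ± 29.4 to 75.7 ± 7.24 FPKM (log2 fold change -0.85, limma adjusted p = 3.94e-05). Fkbp4, an immunophilin of steroid receptors, had a log2 fold change of -0.82 and the phosphatase gene Ppp5c one of -0.79. For these 3 genes every Ang II library lay below every saline library.

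In the HSP70 system outside the 10 genes, changes went both ways. Hspa4l, a second HSP110 gene, rose from 10.4 ± 2.87 to 25.2 ± 5.74 FPKM (log2 fold change 1.21, limma adjusted p = 7.03e-05), with every Ang II library above every saline library, as for 2.74% of tested genes. Hspa13 rose with 0.88, and Hspa12b, an endothelial HSP70 relative, fell with -0.83. Over 7 endothelial markers the summed level ran from 447 to 1360 FPKM with saline and from 178 to 1242 FPKM with Ang II. Of these markers 1 was called higher and 1 lower, and their part in the fall of Hspa12b was not tested. Hspa1l also fell (-0.77), but 71.9% of its exon bases overlap the model Gm10501, so its level is uncertain. Of 17 other J-domain genes 6 fell and none rose (background 24.9% lower), among them Dnajb2 (-0.68), Dnajc7 (-0.87) and Dnajc8 (-0.40), and with median ratio scaling 3 were lower and 2 higher. Of 9 exchange factors and co-chaperones of HSP70, 4 fell and none rose (background 24.9% lower); 3 were lower after median ratio scaling and 3 without Saline 2, Saline 7 and Saline 8. Bag6, which handles membrane proteins in the cytosol, was at -0.82, Hspbp1 at -0.76 and the ubiquitin ligase gene Stub1 (CHIP) at -0.61, with 42.3% of the Stub1 exon bases shared with other models.

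Of 3 other small heat shock protein genes that were tested, Hspb8 fell from 143 ± 31.2 to 96.3 ± 11 FPKM (log2 fold change -0.55, limma adjusted p = 0.00257). Hspb7 held 375 ± 183 and 399 ± 44.1 FPKM (limma adjusted p = 0.460), and without Saline 2, Saline 7 and Saline 8 it was higher (log2 fold change 0.48, limma adjusted p = 0.00467). HSPB8 works with BAG3, HSC70 and CHIP in the removal of damaged filamin from contracting muscle. Of 8 genes of that pathway 3 fell and none rose (background 24.9% lower), Hspb8, Stub1 and Flna (filamin A, log2 fold change -0.71), with the same count after median ratio scaling and 5 lower without Saline 2, Saline 7 and Saline 8. Bag3 held 38.8 ± 10.6 and 36.3 ± 4.30 FPKM (limma adjusted p = 0.729).

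Hsf1, the master factor of the heat shock response, was lower with Ang II: it held 37.7 to 93.6 FPKM with saline and 28.3 to 34.5 FPKM with Ang II, without overlap (log2 fold change -0.76, SE 0.17, limma adjusted p = 0.00263). Without Saline 2, Saline 7 and Saline 8 the log2 fold change was -0.42, and it still passed (limma adjusted p = 0.000257). It was the 1 gene called among 4 tested heat shock factor genes; with median ratio scaling 1 was lower and 1 higher. In the CCT and prefoldin list 4 of 14 genes fell and none rose (background 24.9% lower; 5 without Saline 2, Saline 7 and Saline 8), 3 of them prefoldin genes (Pfdn5 with -1.03, Pfdn6 with -0.80 and Pfdn2 with -0.68), and with median ratio scaling 3 were lower and 3 higher. Of 8 mitochondrial chaperones 3 fell (background 24.9% lower): Trap1 (-0.52), Clpb (-0.33) and Dnaja3 (-0.27), and 1 was lower after median ratio scaling. Clpb was not called without Saline 2, Saline 7 and Saline 8 (limma adjusted p = 0.0584). Dnaja3 was not called with the replicate block (limma adjusted p = 0.0814) or without Saline 3, 5 or 6 or Ang II 1 or 5 (limma adjusted p from 0.0511 to 0.0586).

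**Figure D5:**
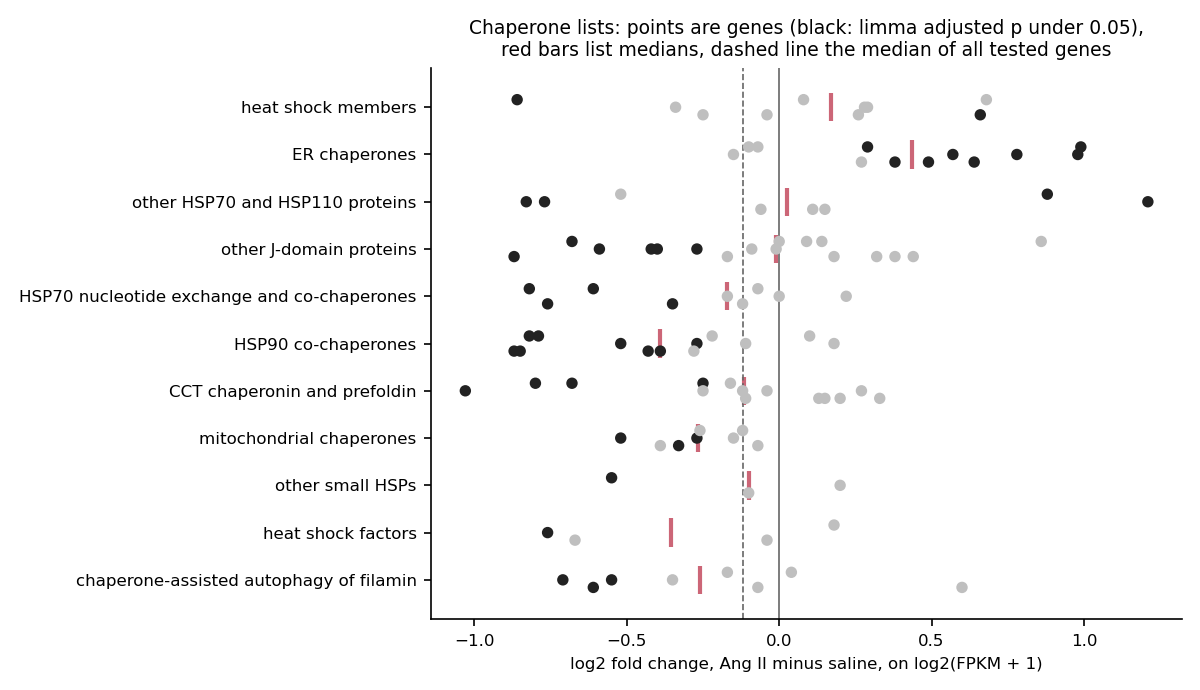
Log2 fold change, Ang II minus saline, of each gene (points; black where the limma adjusted p is under 0.05) in the 10 heat shock genes and 10 lists of other chaperones, with list medians in red and the median of all tested genes dashed. The list of the endoplasmic reticulum has its median at 0.44 and that of HSP90 co-chaperones at -0.39; the latter has 8 lower calls, and 5 lower and 1 higher after median ratio scaling.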

How the data were processed

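The authors deposited one table of FPKM per gene and library, with GRCm38 (mm10) as the genome build per the submitters' processing notes. Aligner, counter and strand setting: not given in the sources used here. Columns were matched to samples by the library name in the labels. Reads were recovered from the FPKM and the mean transcript length in GENCODE M21 (99.93% of gene IDs found); 95.8% to 96.3% of values above 0 were whole within 0.02 of a read, so depth is known. A limma voom fit on these reads, added after seeing the data, called 1449 genes higher and 3643 lower.

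Genes with a mean of 0.5 FPKM or more (15007) were tested with limma 3.58.1 (R 4.3.3), trend on, over log2(FPKM + 1); p-values were adjusted by Benjamini and Hochberg and called under 0.05. This scale understates changes of low genes. Single values, ratios and correlations had exact permutation tests in Python 3.11.15 (numpy 2.4.6, scipy 1.17.1). Limma and the permutation code were tested on simulated data. The members and lists were chosen with earlier results of these data known. Named genes are the 10 members, Hsf1, up to 3 per list and direction by adjusted p, each averaging 1 FPKM or more, Fos, Jun, Egr1 and Atf3, and the 5 nearest genes of 3 members; Hspb2, Hspb7, Bag3 and the smooth muscle markers were named after their values were seen. Alternatives were another pseudocount, filters, 2 scalings, a replicate block, sample weights, a Wilcoxon test and leaving out libraries. The tissue was checked against 8 lists of cell type markers.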

Additional observations from a re-analysis of the deposited data

Results flagged for a closer look

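For the 10 genes, the summed Hspa1 genes and 6 ratios, the gap between the most extreme library and its neighbour was compared with the group's range by Dixon's criterion in 34 sets of 8 libraries; chance flags about 1 in 20 such sets. Dnajb1 in Saline 1 held 51.6 FPKM, against 14.6 FPKM in the next saline library. Hsp90ab1 in Ang II 2 held 609 FPKM, below the next value of 871 FPKM. The ratio of Hsp90aa1 to Hsp90ab1 was 0.458 in Saline 8 and 0.262 in the next saline library. The ratio of Hsph1 to Hspa8 was 0.0766 in Ang II 4, below the next Ang II value of 0.1001.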

How the results depend on the processing

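Over 26 alternatives the count of the 10 genes called lower stayed at 1, Hspb6. The count called higher was 0 with no filter and with the Wilcoxon test (Hsph1, adjusted p = 0.0770 and 0.0573), 2 with sample weights (Hsph1 and Cryab), and 0 to 2 when 1 library was left out. Without Saline 2, Saline 7 and Saline 8 it was 1, Cryab, with Hsph1 at an adjusted p = 0.0508. Over all tested genes 1431 were higher and 3741 lower; after median ratio scaling 2235 and 2113, and after quantile normalization 2270 and 2374. Pathway genes called higher went from 10 to 18 and 21 under these scalings. The cause of these shifts was not tested. The uncalled difference of Hspa8 changed sign to 0.10 with median ratio scaling, 0.087 with quantile normalization, 0.19 with sample weights and 0.15 without the 3 libraries, and ran from -0.14 to 0.10 when 1 library was left out. That of Hsp90aa1 ran from -0.003 to 0.21, and that of Hspb1 was 0.22 with sample weights and 0.18 without the 3 libraries. When 1 library was left out, the log2 difference ran from 0.26 to 0.46 for Hsp90aa1 to Hsp90ab1, 0.32 to 0.68 for summed Hspa1 to Hspa8 and 0.35 to 0.71 for Hspb1 to Hspb6. Same-numbered libraries correlated at -0.246 to 0.385, not above 0.1 in every pair, and 2 of 8 saline libraries were nearest to their own number. These values cannot decide whether the numbers pair samples, and the main fit did not pair them. With the replicate number as a block 1414 genes were higher and 3531 lower, with 1 and 1 of the 10 genes. Depth did not limit the members, the lowest of which had 399 reads.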
